A study of Mus musculus with 20 samples.

Results

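The S phase genes are 38 mouse genes whose products license, copy and package DNA, and their RNA was followed here in single cells of cultured CD1 mouse retina. The members were taken as a list of gene symbols, which was drawn up with earlier results of these data known. All 38 are present among the 23260 genes of the count table.

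The series holds 79009 cells in 20 libraries and 8 groups. All groups share wildtype CD1 retinal explants, electroporation and the isolation of GFP-positive cells, and all libraries used the 3′ chemistry of 10x Genomics. Controls received GFP alone, and the other groups received MEIS1, MEIS2 or both at 50:50 (combination). MEIS1 and MEIS2 are related homeodomain transcription factors. Each construct was studied at a stated age of postnatal day 2 (P2) and of postnatal day 5 (P5), with 4 control libraries and 2 libraries per MEIS group at each age. The plasmid is pCAGIG, in which the broadly active CAG promoter drives the insert and GFP, so that expression is not limited to 1 cell type. Where titles and labels say MEIS1 and MEIS2, the design text of the series says NR2F1 and NR2F2, and it gives 2 or 5 days of treatment where the sample labels give an age. Age and days in culture therefore cannot be told apart. Nothing states that the replicates came from separate litters or animals, so p-values measure only the spread between these libraries.

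In G1, the MCM proteins Mcm2 to Mcm7 are loaded onto replication origins as a ring-shaped helicase, a step called licensing, which Cdc6 helps and geminin (Gmnn) blocks once S phase has begun. During S phase, polymerases with the sliding clamp Pcna copy the DNA, ribonucleotide reductase (Rrm1 and Rrm2) and thymidylate synthase (Tyms) supply nucleotides, and chaperones such as Nasp and Chaf1b load new histones. E2F transcription factors switch on many of these genes at the transition from G1 to S phase. In the postnatal mouse retina, late progenitors give rise mainly to rods, bipolar cells, late amacrine cells and Müller glia, and they stop dividing as Müller glia appear.

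The promoters are shown first because E2F is the textbook regulator of these genes. RefSeq promoter windows (build GRCm38.p6, 250 bases before to 50 bases after the gene start) were matched by symbol for 28 of the 38 members, which have 32 windows. The E2F letters searched were TTTCCCGC, TTTGGCGC, TTTCGCGC and TTTGCCGC on both strands, with overlapping matches counted. At least 1 match lay in 12 of the 32 windows (37.5%), against 2.27% of all 32851 promoter windows of the same length. In a separate list of other replication genes the share was 20.5%, and in a list of G2 and mitosis genes it was 3.33%. The letters CCAAT, on either strand, lay in 65.6% of the members' windows against 37.4% of all windows. TTTGAA, the core of the CHR element known from mitotic genes, lay in 18.8% of the members' windows and 17.9% of all windows, against 66.7% of the windows of the G2 and mitosis list. A match is a description of the letters and does not show binding.

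The 4 members below have the most E2F matches, and all 4 encode helicase subunits. Sequences run 5′ to 3′ on the strand of the gene, and capitals mark the bases covered by E2F matches. Mcm6 lies on the minus strand at chr1:128359656-128359955, Mcm3 on the minus strand at chr1:20820263-20820562, Mcm5 on the plus strand at chr8:75109259-75109558 and Mcm7 on the minus strand at chr5:138171834-138172133.
Mcm6: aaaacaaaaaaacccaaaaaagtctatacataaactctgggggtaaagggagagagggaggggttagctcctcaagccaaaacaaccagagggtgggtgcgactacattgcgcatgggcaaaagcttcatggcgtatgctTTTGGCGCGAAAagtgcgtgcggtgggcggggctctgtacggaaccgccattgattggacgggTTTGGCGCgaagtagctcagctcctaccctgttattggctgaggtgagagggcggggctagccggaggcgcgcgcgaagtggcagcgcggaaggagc
Mcm3: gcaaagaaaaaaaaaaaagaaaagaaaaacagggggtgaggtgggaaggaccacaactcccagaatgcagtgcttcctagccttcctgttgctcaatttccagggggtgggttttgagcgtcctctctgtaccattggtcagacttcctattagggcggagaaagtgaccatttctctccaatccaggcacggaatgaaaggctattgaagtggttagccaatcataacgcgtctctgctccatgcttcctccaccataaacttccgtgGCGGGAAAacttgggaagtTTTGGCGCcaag
Mcm5: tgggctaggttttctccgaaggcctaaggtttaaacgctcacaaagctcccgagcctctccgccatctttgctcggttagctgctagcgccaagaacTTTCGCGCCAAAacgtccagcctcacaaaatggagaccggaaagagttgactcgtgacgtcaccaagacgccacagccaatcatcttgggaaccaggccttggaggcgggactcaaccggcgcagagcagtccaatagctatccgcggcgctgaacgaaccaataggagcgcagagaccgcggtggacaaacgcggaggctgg
Mcm7: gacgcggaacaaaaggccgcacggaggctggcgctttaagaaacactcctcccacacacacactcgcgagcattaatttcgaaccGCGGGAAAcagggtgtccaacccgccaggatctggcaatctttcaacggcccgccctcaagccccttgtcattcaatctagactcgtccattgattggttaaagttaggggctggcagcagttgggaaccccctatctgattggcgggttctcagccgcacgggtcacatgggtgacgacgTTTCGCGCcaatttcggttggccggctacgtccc
Mcm6 holds 3 matches, and 2 of them overlap each other in the first run of capitals. The 2 matches of Mcm5 overlap each other as well, while the 2 matches of Mcm3 lie apart, downstream of the gene start. In Mcm7, 1 of the 2 matches overlaps a CCAAT. Another window of Mcm7, at chr5:138171217-138171516, held 0 E2F matches and 1 CCAAT.

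The libraries held 1625 to 17739 cells and 2376875 to 141540352 UMIs (unique molecular identifiers, each a counted RNA molecule). Per library, the median cell had 992 to 14199 UMIs. P2 MEIS2 2 (libraries are named by age, construct and replicate) had the lowest of these medians and 10.0% of its UMIs in the nuclear RNA Malat1, against 2.53% to 4.41% in the other 19. Progenitors numbered 63 to 2482 per library and held 650348 to 32084420 UMIs. Labels disagree in places: the treatment tag names 1 single construct per age where titles give both, and the barcodes of P2 control 1 and P2 combination 2 start with each other's group name. Titles were followed, and the construct genes held to them in all 20 libraries. Meis1 was at 2099 to 3750 CPM (counts per 1000000 UMIs) in the MEIS1 libraries against 164 to 354 in the controls, and Meis2 was at 848 to 1830 in the MEIS2 libraries against 34.6 to 197 in the controls. Across the series, 744 cell barcodes occurred in more than 1 library, at most 0.876% for any pair of libraries.

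Among the cells that the authors call progenitors, single libraries stood apart from their group in the S phase genes. P5 control 3 was above the other 3 P5 controls in 38 of 38 members, by 1.82 to 18.5 times their median and by 4.01 times in the median member. P2 control 4 was below the other 3 P2 controls in 38 of 38 members, at 0.170 to 0.947 of their median. P5 combination 1 was above P5 combination 2 in 38 of 38 members, and P2 MEIS2 2, the shallow one, was below P2 MEIS2 1 in 34 of 38. These counts were made for the members only, so no share over all genes stands beside them. The progenitors of P2 MEIS2 2 also carried more RNA of other types than those of the other 9 P2 libraries: 8 rod markers summed to 1007 CPM (75.0 to 328 in the others), 8 bipolar markers to 598 (109 to 279), 6 cone markers to 383 (42.5 to 153) and 7 amacrine markers to 275 (35.8 to 105). In that library 0 of the rod, 4 of the bipolar, 1 of the cone and 2 of the amacrine markers were at 0. Lists of pigment epithelium (38.4 CPM against 1.27 to 4.72), astrocytes (24.6 against 2.49 to 7.45) and microglia (23.1 against 3.73 to 9.54) were also above the others. Of their 4, 3 and 6 markers, 3, 0 and 2 were at 0. Müller glia, neurogenic, horizontal and starburst markers were within the range of the others. Endothelial and ganglion cell markers were below it, and 10 progenitor markers summed to 1773 CPM (2224 to 4550 in the others). The part of this in the results on MEIS at P2 was not tested. Results that change without these libraries are given both ways.

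S phase RNA made up the largest share of UMIs in progenitors at P2, while at P5 most progenitors held about as much as the other cell types. The members together made up 0.0454% to 0.255% of all UMIs in the progenitors of a library, with a median of 0.110% over 20 libraries. In rods, which have left the cycle, they made up 0.0434% to 0.0628% (median 0.0503%). The cells the authors call neurogenic, which are on their way out of the cycle, had a median of 0.0501%, and amacrine cells 0.0605%. At P2 the median was 0.198% in progenitors, 0.0571% in rods, 0.0542% in neurogenic cells and 0.0678% in amacrine cells, and progenitors were above each other type in 10 of 10 libraries. At P5 the medians were 0.0575%, 0.0483%, 0.0484% and 0.0573% in the same order. Progenitors at P5 were above rods in 9 of 10 libraries, above neurogenic cells in 8 and above amacrine cells in 5. In P5 controls 1, 2 and 4, progenitors held 0.0454%, 0.0474% and 0.0479%, against 0.0454%, 0.0434% and 0.0491% in rods of the same libraries. Cell types are the authors' own, and their clustering may have used these genes, so differences between types are a description with no test.

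The share of cells rich in S phase RNA was measured in the same 4 cell types. Each cell with at least 1000 UMIs was thinned to 1000 UMIs, and a cell was called S-high if at least 4 of these belonged to the members. By this measure 1584 of 11567 progenitors and 95 of 37841 rods were S-high. Per library the S-high share was 1.34% to 24.0% in progenitors, 0% to 1.12% in neurogenic cells, 0% to 1.78% in amacrine cells and 0% to 0.720% in rods. In Müller glia it was 0 of 37 cells in P2 control 1, which allows up to 8.11%. In 3 P5 libraries with 20 to 46 such cells it was 4.35% to 5.0%, on 1 or 2 cells each, so that its order relative to progenitors was not detectable in P5 MEIS1 2 (4.76% against 2.54%). A library with 0 S-high cells allows a share of up to 3.19% in neurogenic cells, 3.90% in amacrine cells and 1.55% in rods (3 cells of those measured, counting error only). Median depth was 18741 UMIs in progenitors and 4685 in rods. Without thinning, 6.92% to 97.4% of progenitors and 0.579% to 83.4% of rods carried at least 4 member UMIs, a measure that depends on depth by its construction. The level in rods is the background against which the progenitor shares are read.

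**Figure D1:**
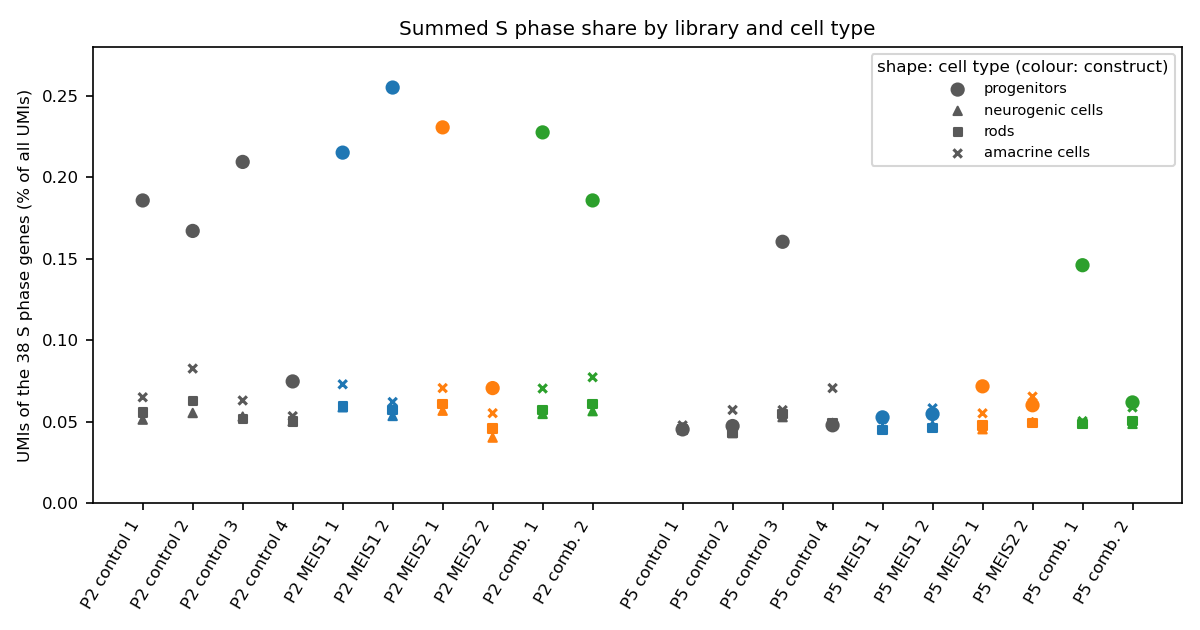
Summed share of UMIs (percent of all UMIs, y axis) that belong to the 38 S phase genes, 1 point per library and cell type; colours give the construct and shapes the cell type. Progenitors reached 0.255%, and most P5 libraries sat near the level of rods, apart from P5 control 3 at 0.160% and P5 combination 1 at 0.146%.

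Members differed widely in how far progenitors stood above rods. The ratio of the median progenitor CPM to the median rod CPM was over 10 for 10 members, over 5 for 20, between 2 and 5 for 9 and under 2 for 9. The progenitor median was above the rod median for 35 of 38 members and above the neurogenic median for 37. Of the members, 15 were above rods in all 20 libraries, and 15 were above neurogenic cells in all 20. These counts, and those by age below, were made for the members only, so no share over all genes stands beside them. By role, the median summed level in progenitors of the P2 libraries was 7.66 times that in rods for nucleotide supply, 4.49 times for cycle control, 4.38 times for repair, 3.84 times for licensing, 3.14 times for the replication fork and 2.70 times for chromatin. At P5 nucleotide supply was again the highest, at 2.56 times, and the other 5 roles were at 0.964 (replication fork) to 1.44 times (licensing).

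The ratios were lower at P5 than at P2 for all 37 members that had 1 at both ages, and the progenitor median was above the rod median for 36 members at P2 and 32 at P5. Over both ages, the 5 members with the highest ratios were E2f8, Uhrf1, Rrm2, Mcm3 and Exo1. E2f8, an E2F-family repressor made during S phase, had a median of 7.26 CPM in progenitors and 0.0423 in rods, a ratio of 172 that rests on 27 UMIs in all rods. Uhrf1, which recruits the maintenance DNA methyltransferase to new DNA, was at 15.2 and 0.186 CPM, a ratio of 81.7. Rrm2, the S phase subunit of ribonucleotide reductase, was at 27.8 and 0.377 CPM, a ratio of 73.9. All 3 genes were close to 0 in rods. The helicase subunit Mcm3 had a ratio of 33.8 (19.8 and 0.586 CPM). Mcm3 was at 34.9, 22.7, 23.99 and 12.2 CPM in the progenitors of the P2 controls and at 5.64, 6.05, 27.5 and 6.24 in those of the P5 controls. P5 control 3 lay within the range of the P2 controls. The repair nuclease Exo1 had a ratio of 22.9 (7.74 and 0.338 CPM).

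The 5 members with the lowest ratios over both ages were Pold3, Gins2, Ccne2, Wdr76 and Mcm7. For Pold3 and Gins2 the rod median was the higher one at each age. The ratio of Mcm7 was 1.45 at P2 and 0.908 at P5, that of Wdr76 1.12 and 0.535, and that of Ccne2 1.20 and 0.390. For these 3 the order of the medians thus differed between the ages. By library, progenitors were above rods in 10 of 10 at P2 and 3 of 10 at P5 for Mcm7. The counts were 6 and 1 for Wdr76 and 5 and 2 for Ccne2, so these 2 had no clear order at P2. Pold3, an accessory subunit of DNA polymerase delta, had a median of 21.9 CPM in progenitors and 39.4 in rods, and it was lower in progenitors in 20 of 20 libraries. Pold3 was at 32.9, 22.3, 30.02 and 15.5 CPM in progenitors of the P2 controls and at 8.68, 9.502, 26.6 and 13.1 at P5. The helicase partner Gins2 was at 12.8 and 23.0 CPM over both ages. Its progenitor levels were 16.3, 20.3, 24.6 and 5.54 CPM in the P2 controls and 3.04, 7.28, 15.5 and 8.11 in the P5 controls. Over both ages, cyclin E2 (Ccne2) was at 10.7 and 11.3 CPM. Wdr76 was at 27.1 and 25.7 CPM, and Mcm7 at 56.3 and 41.3. Several of these genes overlap others in GENCODE vM21 on mm10. Mcm7 overlaps Cops6 and Ap4m1 on the opposite strand and the microRNA genes Mir25, Mir93 and Mir106b on its own, Ccne2 overlaps Ints8, and Gins2 overlaps Gse1, both on the opposite strand. The strand setting of the counting is not given in the sources used here, so the 3 counts are uncertain to that extent, and the part of the overlapping genes was not tested.

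**Figure D2:**
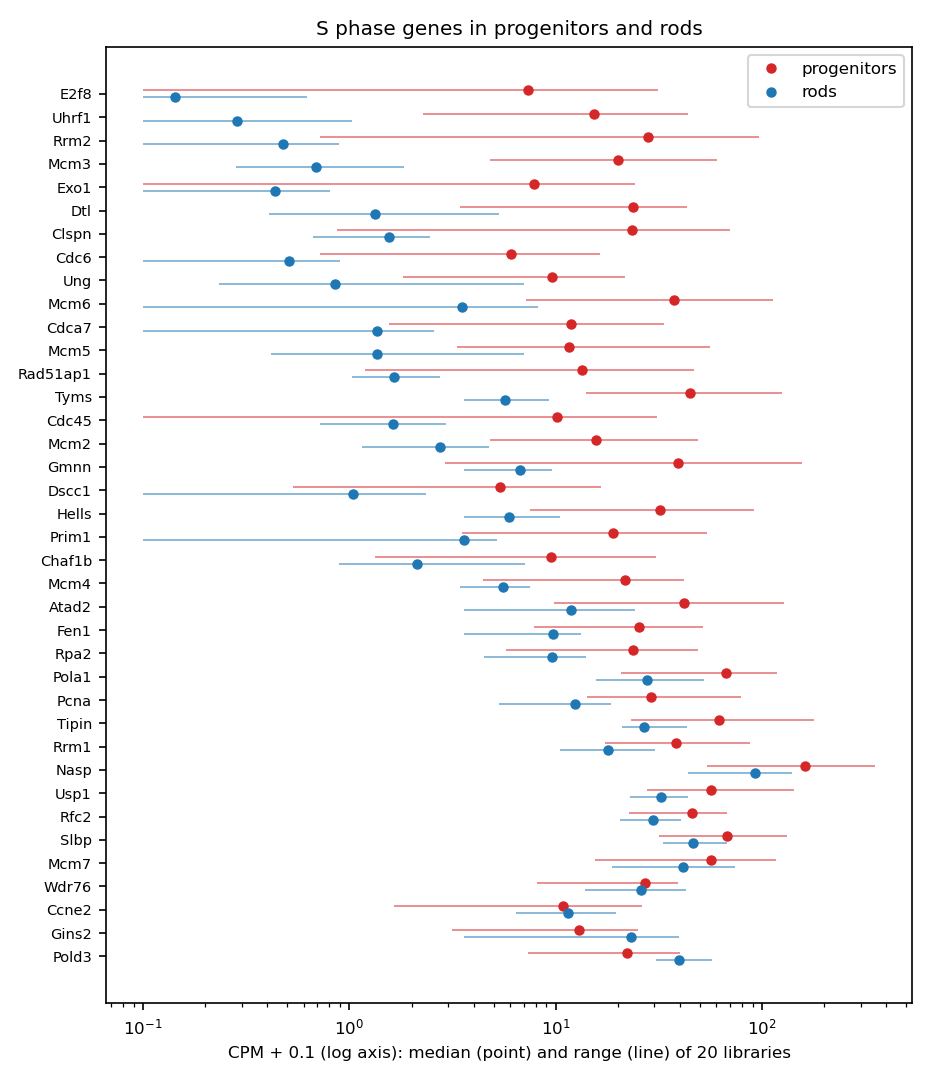
Level of each S phase gene (rows, ordered by the ratio of medians) in progenitors (red) and rods (blue), as CPM + 0.1 on a log axis; points are medians and lines the range of 20 libraries. The medians lie farthest apart for E2f8, Uhrf1 and Rrm2 at the top, and for Pold3 and Gins2 at the bottom the rod median is the higher one.

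The first comparison asked how S phase RNA in control progenitors differed between the ages. At P5 all 38 members were estimated lower than at P2, but only 5 fell past the threshold: Mcm7, Cdca7, Wdr76, Tipin and Ccne2. The levels of the other 33 members missed it, and none rose. The spread between control libraries of an age was wide, and P5 control 3 and P2 control 4 each carried levels near those of the other age. Counts were summed over the cells of a type, so the fit does not by itself separate the number of cells in S phase from the RNA per cell. Shares of cells and clusters are given beside it.

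The summed share shows this by library. The 4 P2 controls were at 0.186%, 0.167%, 0.209% and 0.0748% of UMIs (mean 0.159% ± 0.0589, SD, n = 4). The 4 P5 controls were at 0.0454%, 0.0474%, 0.160% and 0.0479% (mean 0.0753% ± 0.0568, SD, n = 4). The groups overlapped through P2 control 4 and P5 control 3. The S-high share was 17.4%, 12.6%, 19.6% and 3.26% in the P2 controls and 1.55%, 1.34%, 15.1% and 1.43% in the P5 controls. The 95% Wilson intervals, which cover counting error only, ran from 2.37% to 4.49% for P2 control 4 and from 13.0% to 17.4% for P5 control 3. The same 2 libraries stood apart in a list of 32 G2 and mitosis genes, whose share was 0.0960% in P2 control 4 against 0.318% to 0.622% in the others, and 0.260% in P5 control 3 against 0.0126% to 0.0184%.

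In the edgeR quasi-likelihood test with Benjamini-Hochberg adjustment over 14849 genes, 5 of 38 members (13.2%) were called lower at P5 and 0 higher, against 6.96% of all genes called lower and 10.6% called higher. At an unadjusted p under 0.05, 20 of 38 members were lower, against 16.2% of all genes. The median log2 fold change of the members was -1.21 (range -2.0 to -0.29), against -0.04 over all genes. The 2 members whose control groups did not overlap, Cdca7 and Mcm7, make 5.26% of the members, against 8.32% of all genes that were lower without overlap, so that share is no higher than the background. DESeq2 called 9 members lower, against 9.57% of all genes, and the fit with the replicate number as a block called 27, against 10.3%. With P5 control 3 left out, 34 members were called, all but Nasp, Pcna, Rfc2 and Slbp, against 10.4% of all genes, with a median of -1.96. With P2 control 4 left out, 14 were called, against 8.65%, with a median of -1.46. All 5 members named above were also called in each of these 4 fits. P5 control 3 and P2 control 4 were left out after their values were seen. P5 control 3 was the highest P5 control in all 38 members, and P2 control 4 the lowest at P2. Leaving out either one therefore widened the estimated fall by construction. The calls without them, here and by role below, are a description and no separate support. Fits without some other single libraries called fewer members than the main fit.

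Among the 10 licensing genes, 1 fell, against 6.96% of all genes called lower, and the median log2 fold change was -1.16. Without P5 control 3 each of the 10 was called lower, against 10.4% of all genes. Mcm7 (chr5:138164583-138172422, minus strand) was at 73.0, 72.7, 76.2 and 69.1 CPM in the P2 controls and at 15.4, 19.6, 54.7 and 18.4 in the P5 controls. The groups did not overlap, and P5 control 3 was the nearest to the P2 level. The log2 fold change of Mcm7 was -1.45 (SE 0.33, edgeR adjusted p = 0.00732), and the call held with each of the 8 controls left out in turn (highest adjusted p 0.0282). Geminin had the lowest estimate of any member, -2.0, with an adjusted p of 0.0738. Gmnn was at 64.5, 89.3, 155 and 26.1 CPM at P2 and at 10.4, 7.28, 66.1 and 2.81 at P5, so that the groups overlapped through the same 2 libraries.

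Among the 10 genes of the replication fork, 1 fell, against 6.96% of all genes called lower, and the median log2 fold change was -0.94. Without P5 control 3 all but Pcna and Rfc2 were called lower, against 10.4% of all genes. Tipin (chr9:64281581-64305424, plus strand), which with Timeless protects stalled forks, was at 83.9, 117, 178 and 57.7 CPM at P2 and at 25.2, 34.1, 79.7 and 27.1 at P5. P5 control 3 lay above P2 control 4. Tipin changed by -1.45 (SE 0.43, adjusted p = 0.0293), and the call held in 3 of the 8 fits without 1 control (highest adjusted p 0.120). Rfc2, a subunit of the clamp loader, had the estimate nearest to 0, at -0.29 (SE 0.30, adjusted p = 0.538). Rfc2 was at 51.7, 54.0, 50.3 and 29.0 CPM at P2 and at 34.3, 33.4, 60.9 and 22.4 at P5.

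Of the 3 genes of nucleotide supply and the 4 of repair, none passed the threshold, against 6.96% of all genes called lower. Their median log2 fold changes were -1.06 and -1.26. Without P5 control 3 each of these genes was called lower, against 10.4% of all genes. Rrm2 was at 60.7, 45.3, 45.4 and 12.5 CPM in the P2 controls and at 6.29, 4.196, 49.6 and 0.624 in the P5 controls. P5 control 3 held as much Rrm2 as the P2 controls, and the estimate of -1.40 had an SE of 0.83 (adjusted p = 0.254). Exo1 was at 20.7, 11.6, 13.9 and 3.90 CPM at P2 and at 0.651, 0.987, 14.4 and 1.25 at P5, again with P5 control 3 at the P2 level.

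Among the 8 chromatin genes 2 fell, against 6.96% of all genes called lower, and the median log2 fold change was -1.21. Without P5 control 3 all but Nasp and Slbp were called lower, against 10.4% of all genes. Cdca7 (chr2:72476159-72486893, plus strand), which works with the remodeller Hells in DNA methylation, was at 23.3, 25.6, 18.5 and 14.7 CPM at P2 and at 1.95, 3.58, 10.5 and 4.99 at P5. The groups did not overlap. Cdca7 changed by -1.93 (SE 0.47, adjusted p = 0.0103), and the call held in all 8 fits without 1 control (highest adjusted p 0.0366). Wdr76 (chr2:121506723-121544860, plus strand) was at 34.1, 35.1, 37.4 and 19.0 CPM at P2 and at 11.9, 8.02, 28.02 and 18.4 at P5. It changed by -0.95 (SE 0.28, adjusted p = 0.0286), and the call held in 3 of the 8 fits (highest adjusted p 0.0968). Uhrf1 was at 29.6, 22.7, 27.4 and 4.66 CPM at P2 and at 2.17, 3.83, 22.9 and 3.43 at P5, which did not pass (adjusted p = 0.159).

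Among the 3 cycle control genes 1 fell, against 6.96% of all genes called lower, and the median log2 fold change was -1.51. Without P5 control 3 each of the 3 was called lower, against 10.4% of all genes. Ccne2 (chr4:11191351-11204779, plus strand), which activates Cdk2 at the start of S phase, was at 10.7, 18.5, 25.96 and 9.57 CPM at P2 and at 2.60, 4.07, 11.97 and 4.05 at P5. P5 control 3 lay above 2 of the P2 controls. Ccne2 changed by -1.51 (SE 0.46, adjusted p = 0.0326), and the call held in 3 of the 8 fits (highest adjusted p 0.128). The calls of Wdr76, Tipin and Ccne2 were each lost without P2 control 2 or 3 and without P5 control 1, 2 or 4. E2f8 was at 17.9, 18.3, 29.8 and 3.65 CPM at P2 and at 0.868, 1.23, 16.05 and 0.312 at P5 (adjusted p = 0.132).

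**Figure D3:**
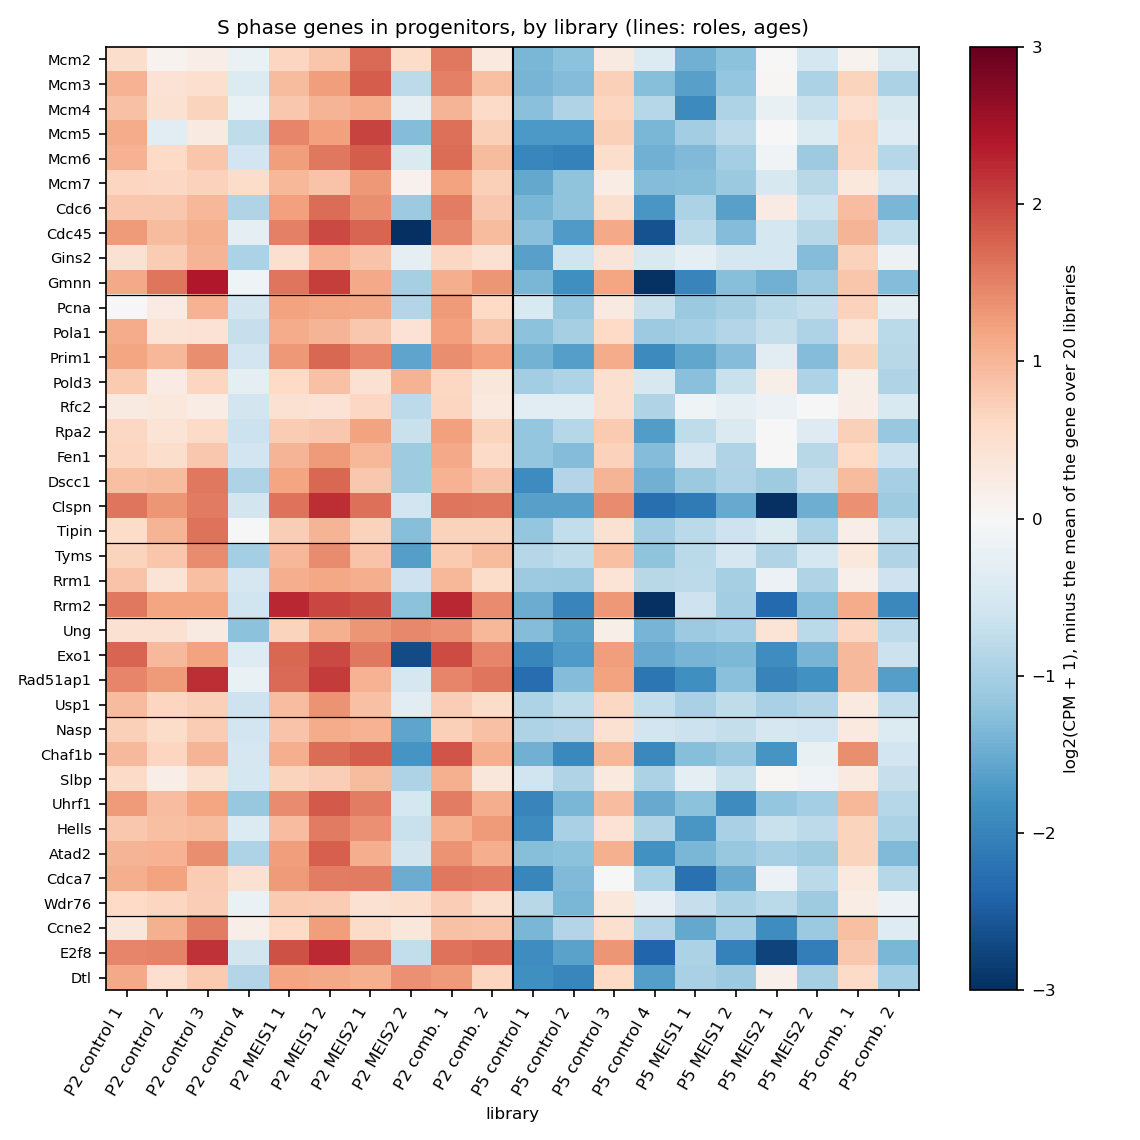
Level of each S phase gene (rows) in the progenitors of each of the 20 libraries (columns), as log2(CPM + 1) minus the mean of the gene over all libraries; black lines separate roles and ages, and the few values under the colour scale are drawn at its end. P5 control 3 and P5 combination 1 resemble the P2 libraries, and P2 control 4 and P2 MEIS2 2 are low.

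**Figure D4:**
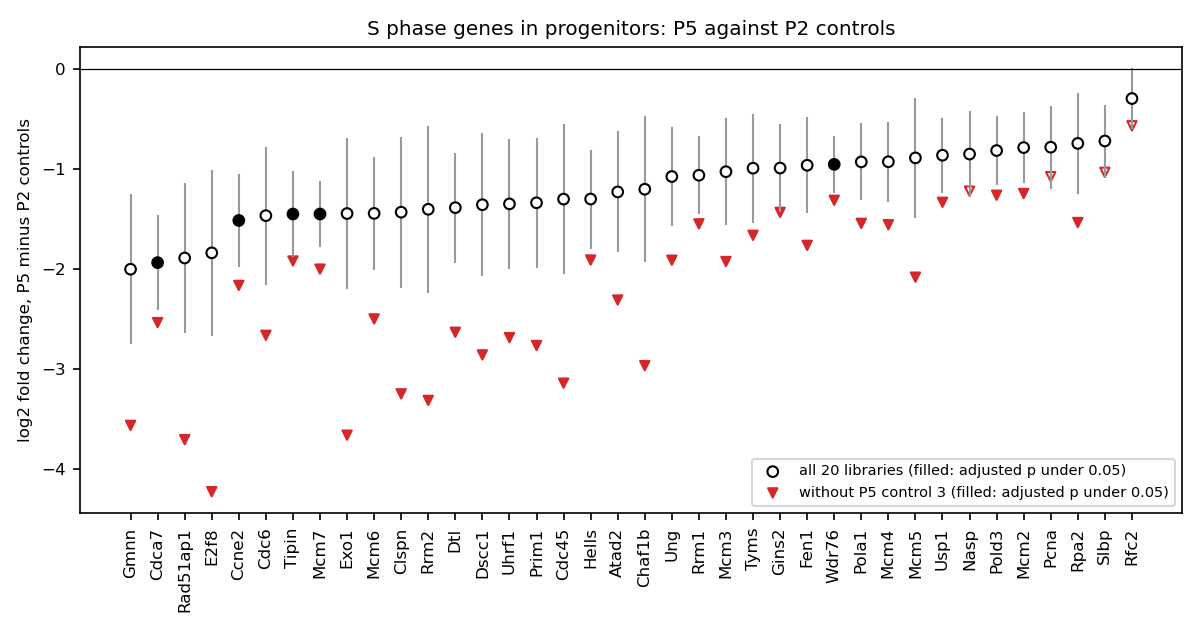
Log2 fold change of each S phase gene in control progenitors, P5 against P2, as circles with bars of 1 SE, and the same without P5 control 3 as red triangles; filled symbols passed an adjusted p of 0.05. All 38 estimates lie below 0, with 5 filled circles and 34 filled triangles. P5 control 3 was left out after its values were seen.

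The makeup of the progenitor class differed between most controls of P2 and P5, but the groups overlapped. The authors' clusters 3, 12 and 16 hold 8376, 2325 and 1117 of the progenitors. Clusters 12 and 16 together took 35.4%, 30.2%, 53.2% and 7.71% of progenitors in the P2 controls and 6.15%, 4.52%, 25.9% and 2.86% in the P5 controls, in which the same 2 libraries stood apart. The summed S phase share in cluster 3 was 0.0497% to 0.0670% in P2 controls and 0.0339% to 0.0476% in P5 controls, near the level of rods. In cluster 12 it was 0.374% to 0.485% in P2 controls and 0.541% in P5 control 3, the only P5 control with at least 20 such cells. Since the clusters were drawn on expression, these values are a description.

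Markers of Müller glia moved with age in the same cells. All 6 of 6 fixed markers were called higher in P5 control progenitors, from Glul (log2 fold change 0.91) to Clu (4.41). Their summed level was 1100 to 3208 CPM in the P2 controls and 8940 to 16527 in the P5 controls, and none was at 0 in any control. P5 control 3, with the most S phase RNA, had the lowest sum among the P5 controls. Among all P5 libraries the lowest was P5 combination 2, at 7866 CPM, whose S phase share was 0.0619%. The summed level of 10 progenitor markers was 2224 to 3412 CPM at P2 and 2713 to 3718 at P5. Of the 12 other lists of cell type markers, 3 were higher at P5 without overlap of the controls: endothelium (276 to 515 CPM at P2, 633 to 881 at P5), starburst amacrine cells (129 to 280, then 339 to 435) and astrocytes (2.49 to 6.04, then 8.90 to 19.7). Another 4 were lower without overlap: bipolar cells (136 to 279, then 59.9 to 111), cones (106 to 153, then 35.8 to 67.9), amacrine cells (35.8 to 105, then 14.2 to 33.2) and horizontal cells (11.6 to 61.1, then 3.12 to 10.6). The starburst list of 4 genes shares Sox2 with the progenitor list. In a control of either age, up to 1 endothelial, 2 starburst, 1 astrocyte, 3 bipolar, 2 cone, 1 amacrine and 2 horizontal markers were at 0. The lists of rods, neurogenic cells, ganglion cells, microglia and pigment epithelium overlapped. The part of these shifts in the S phase result was not tested.

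Beyond the members, 38 other replication genes and 20 regulators of G1 and the G1/S transition were listed. In control progenitors 5 of the other replication genes fell and 0 rose at P5, with a median log2 fold change of -1.0, against 6.96% of all genes called lower. They include Rpa3, a subunit of the single-strand binding complex, at -1.36, the kinase regulator Dbf4 at -1.65, the clamp loader subunit Rfc4 at -1.50 and the primase subunit Prim2 at -1.01. Of the G1/S regulators 3 rose and 3 fell, against 10.6% and 6.96% of all genes. The D-type cyclins Ccnd2 (3.49) and Ccnd3 (1.65) rose, and the inhibitor Cdkn2d (-1.47) and E2f1 (-1.13) fell.

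Outside progenitors, few members changed with age. In neurogenic cells 2 of the 30 members tested fell at P5 and 0 rose, against 2.60% of all genes called lower and 6.67% called higher, and the median log2 fold change was -0.18. Cdca7 was at 5.71, 7.15, 4.395 and 9.44 CPM in the P2 controls and at 1.95, 3.06, 3.69 and 1.82 in the P5 controls, without overlap. It changed by -1.38 (SE 0.33, edgeR adjusted p = 0.0110), and the call held in all 8 fits without 1 control. Mcm7 was at 59.5, 82.7, 77.9 and 75.1 CPM at P2 and at 45.8, 51.3, 58.3 and 53.8 at P5, where the highest P5 value was just below the lowest P2 value. Mcm7 changed by -0.59 (SE 0.16, adjusted p = 0.0217), and the call was lost in 4 of the 8 fits without 1 control, namely without P2 control 2 or 3 or P5 control 1 or 2. On TMM-scaled counts, which correct for composition, only Atad2 and Cdca7 had control groups without overlap, against 4.59% of all genes.

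In rods 1 of the 33 members tested fell at P5 and 0 rose, against 5.94% of all genes called lower and 7.24% called higher, and the median log2 fold change was -0.32. Mcm7 was at 42.6, 65.9, 74.1 and 64.2 CPM in the P2 controls and at 20.1, 21.0, 40.9 and 30.4 in the P5 controls, so that the groups lay close but did not overlap. It changed by -1.22 (SE 0.24, adjusted p = 0.00301), and the call held in all 8 fits without 1 control. Mcm5, Mcm7, Rrm1 and Wdr76 were lower without overlap, against 7.89% of all genes, and Cdc45 was higher without overlap, against 8.83%. DESeq2 called Mcm7, Rrm1 and Mcm5 lower, against 8.39% of all genes. Mcm7 was thus the 1 member called lower in progenitors, neurogenic cells and rods alike, and its overlap with Cops6 and Ap4m1 applies to all 3.

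In amacrine cells edgeR called 0 of 27 members, and 2 had an unadjusted p under 0.05, both lower (3.28% of all genes). The edgeR background there was 0.0458% of all genes called lower and 0.351% called higher. DESeq2 called no member (0 of 27), a count with no DESeq2 share over all genes beside it. The 1 member without overlap was Cdca7, against 1.70% of all genes lower without overlap. Cdca7 was at 2.64, 4.10, 2.79 and 3.96 CPM in the P2 controls and at 1.22, 0, 2.43 and 0 in the P5 controls, where the counts of 0 allow up to 2.63 and 2.93 CPM (3 UMIs per library). The second of these limits lies above the lowest P2 value.

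The next comparison asked whether MEIS constructs, which the series title links to temporal patterning and neurogenesis in late progenitors, came with other levels of S phase genes. No member passed the test in progenitors at either age, for any construct. At P2 most estimates lay above 0, with the largest for the helicase subunit Mcm5 and the base excision glycosylase Ung, and at P5 they were spread about 0. The constructs themselves were clearly present, with Meis1 up by 1.87 and Meis2 by 1.63 on the log2 scale in P2 progenitors and by 2.17 and 3.26 at P5, where all 4 were called.

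By library, the summed share in P2 progenitors was 0.215% and 0.255% with MEIS1, 0.231% and 0.0707% with MEIS2 and 0.228% and 0.186% with the combination. Their mean was 0.198% ± 0.0661 (SD, n = 6), against 0.159% ± 0.0589 in the 4 controls. At P5 the share was 0.0528% and 0.0548% with MEIS1, 0.0718% and 0.0602% with MEIS2 and 0.146% and 0.0619% with the combination. Their mean was 0.0746% ± 0.0357 (SD, n = 6), against 0.0753% ± 0.0568 in the controls. The differences of these means were smaller than the SDs at both ages. At P2 the SD with MEIS takes in the shallow P2 MEIS2 2 (0.0707%). The other MEIS libraries at P2 held 0.186% to 0.255%, against 0.0748% to 0.209% in the controls, so the ranges still overlapped. The medians at P2, with all libraries, were 0.221% with MEIS and 0.176% in controls. The P5 spread was narrower with single libraries left out after their values were seen: without P5 control 3 the control mean was 0.0469% ± 0.00134 (SD, n = 3), and all 6 MEIS libraries (0.0528% to 0.146%) lay above these 3 controls (0.0454% to 0.0479%). Without P5 combination 1 the MEIS mean was 0.0603% ± 0.00745 (SD, n = 5). The medians at P5 were 0.0611% with MEIS and 0.0477% in controls. The S-high share at P2 was 21.8% and 24.0% with MEIS1, 20.2% and 3.88% with MEIS2 and 19.97% and 14.5% with the combination. At P5 it was 1.64% and 2.54%, 3.23% and 4.19%, and 13.2% and 2.34%, in the same order.

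At P2, edgeR called 0 of 38 members for the mean of the MEIS groups against control, and 2 were higher at an unadjusted p under 0.05, against 2.12% of all genes. DESeq2 called 0 members. The 2 genes that edgeR called (0.0135% of all genes) were Meis1 and Meis2 themselves. Shares over all genes in the MEIS contrasts are those of edgeR, so the DESeq2 counts there have none beside them. The estimates were above 0 for 29 of 38 members, and their median was 0.18 (range -0.57 to 0.96), against -0.01 over all genes. The median was 0.02 without P2 control 4, 0.37 without P2 MEIS2 2, and -0.34 without P2 MEIS2 1, which leaves the shallow library alone in that group.

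Licensing genes had a median estimate of 0.43 at P2, the highest of the 6 roles. Mcm2 was at 21.3, 15.6, 16.8 and 12.3 CPM in the P2 controls, 23.0 and 26.4 with MEIS1, 48.9 and 21.5 with MEIS2 and 44.8 and 17.8 with the combination. Its estimate was 0.71 (SE 0.32, unadjusted p = 0.0407, edgeR adjusted p = 0.522). Mcm5 was at 29.0, 9.95, 15.7 and 7.18 CPM in the controls, 37.6 and 31.9 with MEIS1, 55.9 and 4.61 with MEIS2 and 43.1 and 21.9 with the combination. Both genes overlapped between the groups.

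Ung, which removes uracil from DNA, was the 1 member (2.63%) whose 6 MEIS libraries all lay above the 4 controls at P2, against 0.323% of all genes. It was at 10.4, 10.4, 9.04 and 2.52 CPM in the controls, 12.2 and 16.5 with MEIS1, 19.7 and 21.5 with MEIS2 and 20.6 and 15.5 with the combination. The 21.5 CPM in the shallow P2 MEIS2 2 rest on 14 UMIs, and Ung was at 18.3 CPM in amacrine cells, 9.38 in neurogenic cells and 6.95 in rods of that library, against at most 2.23, 4.395 and 1.57 in the other P2 libraries. The other 5 MEIS libraries (12.2 to 20.6 CPM) also lay above the controls. The estimate of 0.93 (SE 0.44, unadjusted p = 0.0499) had an edgeR adjusted p of 0.547 and did not pass. At P5 Ung was at 2.39, 1.73, 8.41 and 2.18 CPM in the controls, 2.89 and 3.13 with MEIS1, 9.98 and 3.72 with MEIS2 and 11.8 and 3.85 with the combination. At P5 the groups overlapped through P5 control 3.

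At P5, edgeR called 0 of 38 members. At an unadjusted p under 0.05 there were 0 members, against 0.593% of all genes higher and 1.32% lower. In DESeq2 the number called was also 0. Over all genes edgeR called 0.0202%, which is 3 genes that include Meis1 and Meis2. The estimates were above 0 for 13 of 38 members, with a median of -0.11 (range -1.64 for E2f8 to 0.46 for Ung). The direction of that median was not stable. It was 0.72 without P5 control 3, 0.03 without P5 combination 2 and 0.25 with the replicate number as a block, and 0 members were called in each of these fits. E2f8 was at 2.53 and 0.663 CPM with MEIS1, 0 (a count that allows up to 2.30 CPM) and 0.620 with MEIS2 and 10.9 and 1.65 with the combination, against 16.05 in P5 control 3 and 0.312 to 1.23 in the other 3.

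No member passed for a single construct in edgeR or in DESeq2, which called 0 each. At an unadjusted p under 0.05 the 1 member was Mcm2, higher with MEIS2 at P2 (7.50% of all genes). In the other construct contrasts, 0.343% to 1.55% of all genes were higher and 0.687% to 2.37% lower at that p. At P2 the median estimates were 0.50 for MEIS1, -0.14 for MEIS2 and 0.23 for the combination, and edgeR called 0.00673%, 0.0404% and 0.0135% of all genes in the same order. At P5 they were -0.59, -0.27 and 0.63, with 0.00673%, 0.00673% and 0.0135% of all genes called. At both ages the genes called were only Meis1 or Meis2 themselves, except for MEIS2 at P2, where 6 genes including Meis2 were called. A background this small says little about the 0 members called. Without P5 control 3 the P5 medians were 0.27, 0.50 and 1.44, and without P5 combination 1 that of the combination was -0.38, so each of these directions turned with 1 library. Those at P2 were 0.28, -0.29 and 0.02 without P2 control 4. For MEIS2 at P2 the median was 0.36 without P2 MEIS2 2 and 0.07 without P2 control 3. Without P2 MEIS2 1 it was -1.80, and Nasp and Tipin were called lower, against 9.06% of all genes. That fit holds MEIS2 as the shallow library alone, assumed to vary like the other groups, so these calls describe 1 library. The 3 constructs of an age share their 4 controls, so their values are not independent of each other. The lowest adjusted p of any member was 0.293, for MEIS2 at P2. The test of a difference between the ages in the MEIS effect called 0 of 38 members and 0 of all genes (0%) in edgeR, with 0 members at an unadjusted p under 0.05. The same difference in DESeq2 had 0 calls.

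**Figure D5:**
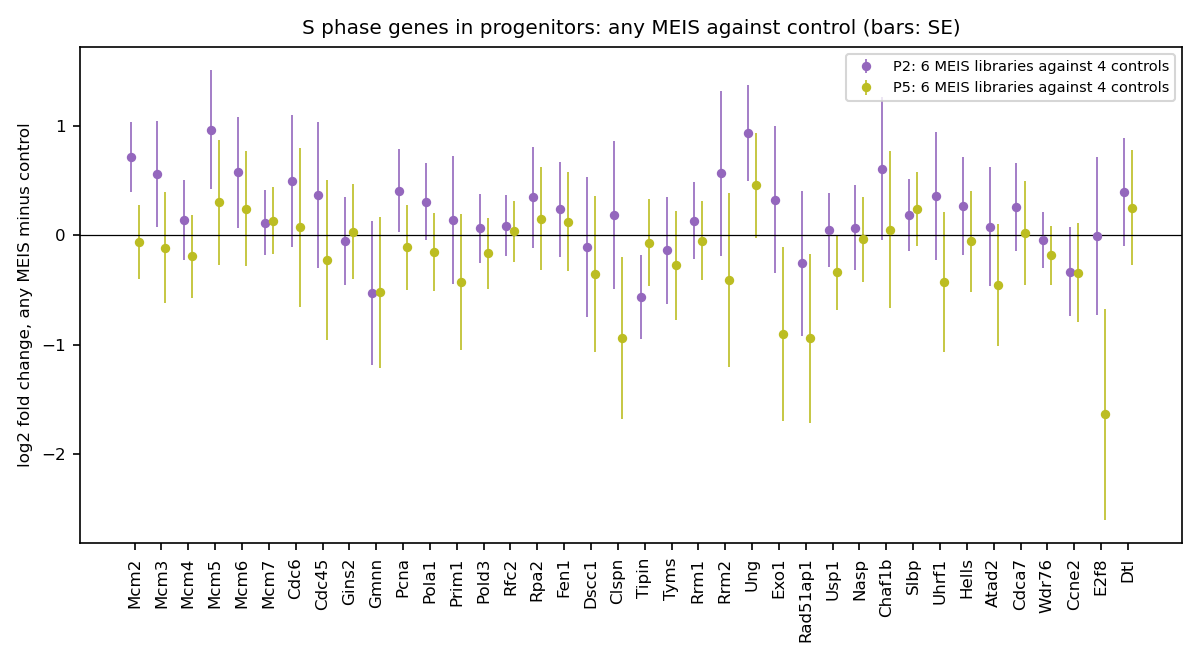
Log2 fold change (y axis) of each S phase gene in progenitors, mean of the 3 MEIS groups against control, at P2 (purple) and P5 (olive), with bars of 1 SE; no point passed an adjusted p of 0.05. The P2 estimates span -0.57 to 0.96, and the P5 estimates span -1.64 to 0.46.

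In neurogenic cells edgeR called 0 of 30 members with MEIS at each age, against 0% and 0.00728% of all genes. The share at P5 is 1 gene, Meis1 itself. DESeq2 called 0 at both ages. At an unadjusted p under 0.05, 1 member was lower at P2 (8.30% of all genes) and 0 at P5 (1.07%). The member was Tipin, at -0.56 (SE 0.21, unadjusted p = 0.0151, edgeR adjusted p = 0.354). Without P2 control 1, or with the 2 libraries of conflicting barcodes regrouped by the barcode start, Mcm7 and Tipin were called lower, against 3.24% and 5.80% of all genes in these fits. Without P2 MEIS2 1, Nasp was called lower (log2 fold change -0.86, edgeR adjusted p = 0.00962), against 3.86% of all genes. In that fit MEIS2 is again the shallow library alone, assumed to vary like the other groups, with 9 UMIs of Nasp (28.2 CPM). The summed share in neurogenic cells was 0.0526% ± 0.00225 in P2 controls (SD, n = 4) and 0.0535% ± 0.00671 with MEIS (SD, n = 6). At P5 it was 0.0479% ± 0.00422 (SD, n = 4) and 0.0479% ± 0.00165 (SD, n = 6). None of the other replication genes or G1/S regulators was called for any MEIS contrast in progenitors or neurogenic cells.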

How the data were processed

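Single-cell RNA was measured in 20 libraries of mouse retinal explants. The values the authors deposited are UMI counts that were not normalized, 1 per gene and cell. They were made with Cell Ranger on mm10 with an added GFP locus per the series design text, and Seurat 5 is named in the submitters' processing notes. For each cell the authors also deposited the UMIs and genes as a count, the mitochondrial UMIs as a percent, and its cluster and cell type. In all 79009 cells the deposited UMI count equals the sum over genes, and the percent was recomputed within 0.01. Filters, strand setting and annotation are not given in the sources used here.

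The UMIs of each library and authors' cell type were summed (at least 20 cells). Genes passing filterByExpr were fitted with 8 group means in edgeR 4.0.16 (R 4.3.3, TMM, two-sided quasi-likelihood test, Benjamini-Hochberg adjustment over all genes, threshold 0.05). CPM is per 1000000 UMIs of the library and type. Cells were thinned to 1000 UMIs for the S-high share in Python 3.11.15. Steps were tested on counts simulated for progenitors, with known changes of 1 or 2 log2 units and no libraries set apart. For P5 against P2 controls, edgeR recovered 30% of the changes of 1 unit and 85.9% of those of 2. For MEIS against control it recovered 47.4% and 87.1% at P2, and 36.7% and 90.9% at P5. A member that did not pass may therefore still differ by 1 log2 unit. In the real data some libraries stood apart in the members, so recovery for the members may be lower than simulated. Gmnn, at -2.0 in the age contrast, was not called (edgeR adjusted p = 0.0738). A difference near 2 log2 units may thus be missed as well. Scrublet (scanpy 1.11.5, expected 6 percent) marked 3000 cells (3.80%) as doublets. It marked 0 cells in P2 control 2 and 1 of 6292 in P5 control 1, where the caller has not worked, and also few in P2 MEIS2 2 (1 of 1625) and P5 MEIS2 1 (2 of 2095). Doublets stayed in. The alternatives were leaving doublets out, DESeq2 1.42.0, library sizes without TMM, all genes without the low-count filter, at least 50 cells, only the groups compared, groups from the barcode start or the treatment tag, each library left out, and the replicate number as a block.

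Same-numbered controls of P2 and P5 deviated from their group means together (r = 0.173, 0.126, 0.309 and 0.135 over 14849 genes for numbers 1 to 4), so the block is printed beside the age result, although only numbers 2 and 3 of the 4 correlated best with their own number. The numbers come from the titles, and the barcode starts equal the titles in 10 of 20 libraries, which leaves the pairing uncertain.

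Members and lists were chosen with earlier results of these data known. By rule, values in each control library are given for members called in any contrast, for the 5 highest and 5 lowest ratios of progenitors to rods over both ages, and for members whose MEIS libraries all lay on 1 side of the controls. Gmnn, Rfc2, Mcm2 and Mcm5 were added after their values were seen, as were the genes named from the pathway lists.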

Additional observations from a re-analysis of the deposited data

Results flagged for a closer look

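In groups of 4 control libraries, a library was picked out when its gap to the nearest other, as a share of the whole range, passed the 95% critical value of Dixon's test. Of 44 groups tested, 13 met this, all in progenitors, where chance gives about 1 in 20. P5 control 3 accounts for 12 of the 13. It stood above the other P5 controls in the summed S phase share (0.160%), the S-high share (15.1%) and the share of the G2 and mitosis list (0.260%). The same held for Ccne2 (11.97 CPM), E2f8 (16.05 CPM), Exo1 (14.4 CPM), Mcm3 (27.5 CPM) and Mcm7 (54.7 CPM). It also held for Rrm2 (49.6 CPM), Tipin (79.7 CPM), Uhrf1 (22.9 CPM) and Ung (8.41 CPM). In P2 control 4, Ung (2.52 CPM) stood below the other P2 controls. These values share libraries and are not independent of each other.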

How the results depend on the processing

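Of 379 alternatives to counts of called members and to mean shares, 350 left the value within 1.5 times or within 1 SD, and 29 moved it. These include 199 MEIS fits, in which a count that stayed at 0 was taken as unchanged. The SD of a mean share takes in the libraries that stood apart, so the tally does not show how firm a result is. For P5 against P2 control progenitors, where 5 members were called, DESeq2 called 9 (of those it gave an adjusted p), the replicate block 27, the fit of only the groups compared 3, and the fits without 1 library 2 to 34. In neurogenic cells, where 2 were called, no TMM factors gave 1, only the groups compared gave 1, and leaving out 1 library gave 1 to 3. In rods, where 1 was called, DESeq2 gave 3, groups from the barcode start 3, leaving out the shallow P2 MEIS2 library 2, and leaving out 1 control 1 to 3. For MEIS against control in P2 neurogenic cells, groups from the barcode start gave 2 and leaving out 1 library 0 to 2. For MEIS2 at P2 in progenitors, leaving out 1 library gave 0 to 2 (Nasp and Tipin, with the shallow library alone). Of 199 alternative fits over 11 MEIS contrasts, 4 called any member. These counts stand without the share of all genes called, which is given above for some of the fits and shifts with the fit. For MEIS in P2 neurogenic cells edgeR called 0% of all genes in the main fit. Without P2 control 1 it called 3.24% lower, and with groups from the barcode start 5.80%. A change in the number of members may follow that share. With mitochondrial genes, Malat1 and GFP out of the total, the mean share in neurogenic cells was 0.0577% in P2 controls, 0.0532% in P5 controls and 0.0530% in P5 MEIS libraries. In the MEIS contrasts replicates share only a number (correlations of deviations -0.25 to 0.58 between groups), and with the replicate block 0 members were called. In a separate set of 136 alternatives for single called members, the call was kept in 113, lost in 23 and reversed in 0. Depth in progenitors was lowest in P2 MEIS2 2 (650348 UMIs), and the fewest progenitors were in P5 MEIS2 1 (63 cells).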
